A study of Mus musculus with 6 samples.

Results

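Luminal mammary epithelial cells (MECs) make the fat of milk, and 36 genes of fatty acid synthesis and milk fat secretion were compared between Runx1-null and Runx1-WT luminal MECs, out of 18194 genes that had an array probe set of their own. The members were chosen by gene name for a place in this pathway. They comprised 7 genes of de novo synthesis, 7 of desaturation and elongation, 8 of uptake, binding and activation, 7 of triglyceride assembly, 5 of the lipid droplet and milk fat globule, and 2 transcription factors. A probe set that maps to a single gene was given for 35 of the 36. The expression of Acsl1, an acyl-CoA synthetase, was not analysed here.

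The cells were YFP+ luminal MECs sorted from mammary glands of adult virgin females. Runx1-null cells came from 3 mice of the genotype MMTV-Cre;Runx1L/L;R26Y and Runx1-WT cells from 3 mice of the genotype MMTV-Cre;Runx1+/+;R26Y, each mouse on 1 array and all on a mixed B6/129/FVB background. Both groups therefore carried the MMTV-Cre transgene and the R26Y reporter, in which Cre turns on YFP, and they differed in Runx1L, a conditional allele with a floxed exon. The MMTV promoter drives Cre in subsets of MECs, and YFP reports recombination of the reporter and not of Runx1 itself. The study's methods call the mice littermates, but which mice shared a litter and their exact age are not given in the sources used here. The luminal gate of the study was Lin-CD24+CD29lo, with CD31, CD45 and TER119 as the lineage markers that were gated out.

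Fatty acids reach a luminal cell by 2 routes. The cell can build them from citrate, through ATP citrate lyase, acetyl-CoA carboxylase and fatty acid synthase, or take them up from blood lipoproteins after lipoprotein lipase has freed them. They are then activated with coenzyme A, desaturated or elongated, esterified stepwise to glycerol as triglyceride, and stored in droplets that leave the secretory cell wrapped in plasma membrane as milk fat globules. In the mammary gland this programme is known for its large increase around the onset of lactation, under prolactin signalling and the sterol regulatory element-binding proteins, and the virgin gland studied here precedes it.

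The defining luminal genes Epcam, Krt8 and Krt18 had intensities of 9557 to 14017 in Runx1-null mice and 9411 to 13493 in Runx1-WT mice. Median array intensity was 106 to 148 in Runx1-null mice and 129 to 163 in Runx1-WT mice, and any pair of arrays correlated at 0.947 to 0.985 over all probe sets. The 3' to 5' difference of the Gapdh control probe sets, a measure of RNA integrity, was 0.47 to 0.61 on the log2 scale in Runx1-null mice and 0.46 to 0.47 in Runx1-WT mice. That of actin was 0.44 to 0.74 in Runx1-null mice and 0.50 to 0.52 in Runx1-WT mice, with Runx1-null mouse 3 the highest, and this mouse also had the lowest median intensity. All 6 probe sets of Runx1 overlapped between the groups. Their position relative to the floxed exon was not analysed, so they do not test the deletion. By quantitative RT-PCR the study found loss of Runx1 expression in YFP+ MECs of Runx1L/L mice. In YFP+ mature luminal cells it found only a slight reduction, and the paper proposes that many of these may have escaped full excision.

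None of the 34 members that could be tested passed an adjusted p under 0.05 in limma, a linear model fitted over 12152 genes, against a background of 0% of all tested genes. Every tested member had an adjusted p of 0.9997. The log2 difference, Runx1-null minus Runx1-WT, was above 0 for 14 members and below 0 for 20, with a median of -0.05 against -0.02 for all tested genes, where 44.6% of all tested genes lay above 0 and 55.4% below. The difference exceeded 0.5 in size for 5 members (Lpl, Cd36, Dgat2, Olah and Btn1a1), all below 0, and for 7.9% of all tested genes. Without adjustment, 3 members had p under 0.05 and were lower in Runx1-null cells (Lpl, Cd36 and Scd1), where 1.28% of all genes did so, and 1 was higher (Plin2), where 0.642% did so, so that 4 of 34 members passed in either direction against 1.93%. With 1 mouse left out this count ran from 1 (Scd1, without Runx1-WT mouse 1) to 6 (without Runx1-WT mouse 3), and with median scaling it was 1 (Lpl). All 3 Runx1-null values lay below all 3 Runx1-WT values for 4 members, Lpl, Cd36, Scd1 and Agpat1, or 4 of 34 against a background of 3.47%. No member had all Runx1-null values above, against 2.08%, and in either direction the background was 5.55%.

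**Figure D1:**
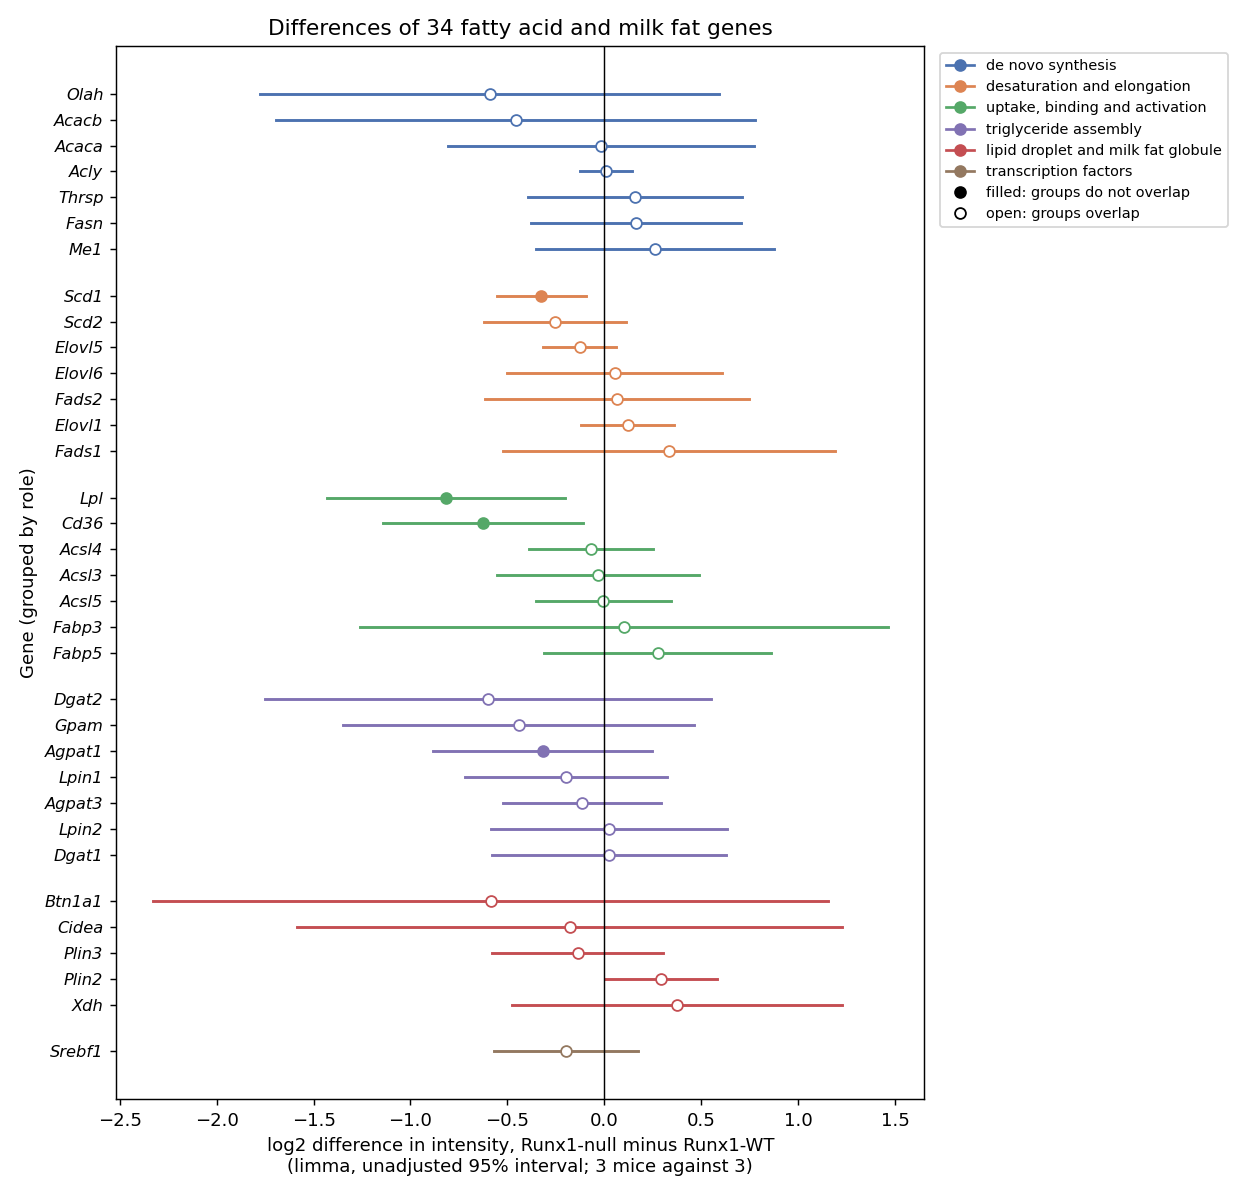
Log2 difference in array intensity, Runx1-null minus Runx1-WT, of the 34 tested members (x axis) with the unadjusted 95% interval of limma as bars, genes grouped by role down the page. Filled points mark the 4 members whose groups did not overlap, all of them to the left of 0, and the intervals of Btn1a1, Fabp3 and Cidea are wide.

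A promoter window of 250 bases before to 50 bases after a gene start was given by RefSeq (build GRCm38.p6) for 26 of the 36 members, as 36 windows among 32851. Those of Cd36 and Agpat1 are shown because their groups did not overlap, that of Plin2 because its mean differed the other way, that of Fasn as the synthase itself, and that of Elovl5 because it holds 2 matches to the RUNX letters. Each is written 5′ to 3′ on the gene's strand, and capitals mark the letters searched on both strands: TGTGGT or TGCGGT for RUNX, TCACNCCAC for a sterol response element, CACGTG for an E-box, CCAAT for NF-Y and TTCNNNGAA for STAT factors.
Cd36 promoter, chr5:17835847-17836146, minus strand: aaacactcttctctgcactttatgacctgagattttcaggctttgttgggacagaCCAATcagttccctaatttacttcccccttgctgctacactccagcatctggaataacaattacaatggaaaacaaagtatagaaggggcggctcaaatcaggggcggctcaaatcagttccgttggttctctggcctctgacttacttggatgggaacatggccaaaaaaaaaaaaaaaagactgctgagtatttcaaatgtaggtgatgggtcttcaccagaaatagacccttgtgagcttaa
Agpat1 promoter, chr17:34605611-34605910, plus strand: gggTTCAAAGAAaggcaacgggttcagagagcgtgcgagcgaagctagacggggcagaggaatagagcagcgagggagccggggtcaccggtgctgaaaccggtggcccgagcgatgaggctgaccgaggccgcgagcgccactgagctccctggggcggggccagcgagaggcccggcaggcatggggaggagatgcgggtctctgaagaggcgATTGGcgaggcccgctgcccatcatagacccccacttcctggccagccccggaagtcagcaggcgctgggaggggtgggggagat
Plin2 promoter, chr4:86670010-86670309, minus strand: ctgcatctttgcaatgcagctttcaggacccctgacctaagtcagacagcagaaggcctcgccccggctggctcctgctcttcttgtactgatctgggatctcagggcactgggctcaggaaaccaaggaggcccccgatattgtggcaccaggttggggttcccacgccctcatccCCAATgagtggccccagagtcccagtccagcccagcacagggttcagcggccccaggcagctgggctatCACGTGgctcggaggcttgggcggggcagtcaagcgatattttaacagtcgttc
Fasn promoter, chr11:120824498-120824797, minus strand: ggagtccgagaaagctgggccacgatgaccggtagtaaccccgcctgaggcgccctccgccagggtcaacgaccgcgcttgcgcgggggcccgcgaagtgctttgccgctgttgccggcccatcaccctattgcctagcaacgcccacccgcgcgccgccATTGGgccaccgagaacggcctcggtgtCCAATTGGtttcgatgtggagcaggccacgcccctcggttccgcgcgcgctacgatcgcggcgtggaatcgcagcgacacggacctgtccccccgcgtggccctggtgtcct
Elovl5 promoter, chr9:77917115-77917414, plus strand: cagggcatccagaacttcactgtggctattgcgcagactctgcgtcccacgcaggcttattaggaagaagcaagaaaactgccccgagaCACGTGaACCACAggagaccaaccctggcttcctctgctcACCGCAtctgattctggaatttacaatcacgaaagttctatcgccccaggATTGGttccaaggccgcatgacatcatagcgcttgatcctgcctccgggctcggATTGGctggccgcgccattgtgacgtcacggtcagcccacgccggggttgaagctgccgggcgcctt
The Cd36 window holds 1 CCAAT, at positions -195 to -191 from its start. That start lies inside the gene, which spans 17781690 to 17888959 on chr5, and no window at the gene's upstream end was searched. The Agpat1 window holds TTCAAAGAA and an inverted CCAAT, and a second Agpat1 window holds none of the letters. In Plin2 the E-box letters span the start itself, from -4 to 2, and in Fasn 2 of the 3 NF-Y matches overlap each other. RUNX letters stood in 27.8% of the member windows and 22.4% of all windows, sterol response letters in 5.56% (windows of Acsl1 and Mlxipl, neither of them tested) and 1.24%, E-box letters in 11.1% and 7.15%, NF-Y letters in 52.8% and 37.4%, and STAT letters in 2.78% and 8.3%. Neither Cd36, Agpat1 nor Plin2 held RUNX or sterol response letters in these windows. A match is a run of letters and not a binding site.

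De novo synthesis showed no member apart between the groups. Of its 7 genes, 4 lay above 0 and 3 below, with a median difference of 0.01. Acly, ATP citrate lyase, which makes cytosolic acetyl-CoA from citrate, had intensities of 7439, 8030 and 7988 in Runx1-null mice, against 7971, 7521 and 7789 in Runx1-WT mice. The groups overlapped throughout, and Acly was the steadiest member, with a within-group SD of 0.05 on the log2 scale that stood at the 1.79 percentile of all tested genes. Its difference was 0.01 (95% interval -0.12 to 0.14), the narrowest interval among the members. The other Acly probe sets gave 0.12, -0.06, -0.20 and -0.25, all with overlapping groups.

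Fasn, fatty acid synthase, had 1291, 1041 and 886 in Runx1-null mice, against 793, 905 and 1178 in Runx1-WT mice. Its mice were interleaved, at a log2 difference of 0.16 (interval -0.38 to 0.71), with the promoter printed above. Acaca and Acacb, the acetyl-CoA carboxylases of the cytosol and of the mitochondrial surface, differed by -0.02 (SE 0.33) and -0.46 (SE 0.52). Me1, malic enzyme, which supplies NADPH for the synthase, differed by 0.26 (SE 0.26). Thrsp, or Spot 14, known from mice as a support of milk fat synthesis, differed by 0.16 (SE 0.23).

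Olah, the thioesterase that ends chain growth early and gives milk its medium-chain fatty acids, had 101, 75.7 and 49.8 in Runx1-null mice, against 106, 62.6 and 195 in Runx1-WT mice. Its log2 difference of -0.59 (SE 0.50) rested on Runx1-WT mouse 3, the 1 mouse that stood above the rest. Without that mouse the difference was -0.17.

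Among the desaturases and elongases, Scd1 was the only member of 7 whose groups did not overlap. Scd1, the delta-9 desaturase that makes oleate from stearate, had 7616, 8437 and 7332 in Runx1-null mice, against 10754, 8579 and 10011 in Runx1-WT mice. All Runx1-null values were below all Runx1-WT values, but Runx1-null mouse 2 and Runx1-WT mouse 2 lay close together. The log2 difference was -0.32 (SE 0.10, unadjusted limma p = 0.0121), a fold of 0.80, with the smallest p that an exact two-sided permutation test of 3 against 3 allows, 0.1. A dimmer probe set of Scd1 had 626, 690 and 506 in Runx1-null mice, against 1585, 851 and 1454 in Runx1-WT mice. It too did not overlap, at -1.06 (SE 0.28), and read the same transcripts in the same mice.

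Scd2, the neighbouring desaturase gene, had 3439, 4634 and 3995 in Runx1-null mice, against 5087, 3992 and 5325 in Runx1-WT mice. Here Runx1-WT mouse 2 fell among the Runx1-null mice, and the difference was -0.25 (SE 0.15). Its other probe sets gave -0.54 and -0.67, also with overlap. Fads1 and Fads2, the front-end desaturases that make polyunsaturated fatty acids, differed by 0.34 (SE 0.36) and 0.07 (SE 0.29). For both, Runx1-WT mouse 2 was the lowest and Runx1-WT mouse 3 the highest of the 6, at 1241 and 3621 for Fads1. Without Runx1-WT mouse 2 their differences were -0.08 and -0.27, on the other side of 0.

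The elongases add carbon pairs to the chain. Elovl5, which extends polyunsaturated chains, had 5408, 5226 and 5237 in Runx1-null mice, against 5866, 5307 and 6173 in Runx1-WT mice. Runx1-WT mouse 2 again lay inside the range of the Runx1-null mice, and the difference was -0.13 (interval -0.31 to 0.06). Elovl1, of the very long chains, differed by 0.12 (SE 0.10), and its 3 other probe sets by 0.14, 0.19 and 0.15. Elovl6, which turns palmitate into stearate, differed by 0.05 (SE 0.23).

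Uptake held the members with the largest differences. Lpl, lipoprotein lipase, which frees fatty acids from circulating triglyceride, had 430, 612 and 422 in Runx1-null mice, against 865, 655 and 1070 in Runx1-WT mice. The groups did not overlap, and the log2 difference was -0.82 (SE 0.26, interval -1.43 to -0.20, unadjusted limma p = 0.0164), a fold of 0.57 (exact permutation p = 0.1). Its other probe set had 103, 117 and 65.6 in Runx1-null mice, against 172, 139 and 231 in Runx1-WT mice. That set also did not overlap, at -0.93 (SE 0.34).

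Cd36, the membrane receptor and translocase for long-chain fatty acids, had 562, 434 and 639 in Runx1-null mice, against 826, 948 and 731 in Runx1-WT mice. The groups did not overlap, and the log2 difference was -0.63 (SE 0.22, interval -1.14 to -0.11, unadjusted limma p = 0.0242), a fold of 0.65 (exact permutation p = 0.1). Of its dimmer probe sets, 1 had 208, 202 and 340 in Runx1-null mice, against 443, 384 and 459 in Runx1-WT mice, at -0.82 (SE 0.27). This set was apart as well, whereas the remaining set, at -0.59 (SE 0.32), overlapped through Runx1-null mouse 3. In the promoter shown for Cd36 only the CCAAT stands in capitals.

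Lpl and Cd36 are also expressed by cells outside the epithelium, and most markers of such cells also lay below 0. All 7 tested endothelial markers lay below 0, with a median of -0.47. Their summed intensity was 874 to 1168 in Runx1-null mice and 1404 to 1655 in Runx1-WT mice, and Kdr and Tek did not overlap, at -0.70 (SE 0.32) and -0.73 (SE 0.30). All 7 stromal fibroblast markers lay below 0, with a median of -0.62 and a summed intensity of 5266 to 13893 in Runx1-null mice and 12731 to 16001 in Runx1-WT mice. Of 12 adipocyte markers 10 had a probe set of their own, and 4 of these passed the intensity filter, all below 0 at a median of -0.25. The summed intensity was 2618 to 4627 in Runx1-null mice and 3915 to 4145 in Runx1-WT mice. Adipoq, Lep, Cidec, Plin4, Acvr1c and Pnpla3 were below the filter, at 7.91 to 109 in Runx1-null mice and 7.06 to 71.2 in Runx1-WT mice. Fabp4 was the brightest that passed, at 1913 to 3304 in Runx1-null mice and 2878 to 3395 in Runx1-WT mice. Lipe, Car3 and Retn also passed, Lipe at 245 to 1004 in Runx1-null mice and 447 to 565 in Runx1-WT mice. Leukocyte markers lay below 0 for 6 of 7, with a median of -0.22 and a summed intensity of 1024 to 1964 in Runx1-null mice and 1272 to 4200 in Runx1-WT mice. The 4200 was that of Runx1-WT mouse 3 alone, and Runx1-WT mice 1 and 2 had 1272 and 1322. Basal and myoepithelial markers, of the epithelium but not of its luminal cells, lay above 0 for 4 of 6 tested, with a median of 0.21. Their summed intensity was 4347 to 11166 in Runx1-null mice and 4565 to 8633 in Runx1-WT mice. The gate was set against endothelial and blood cells, through CD31 and CD45, and Pecam1, the gene of CD31, overlapped at 82.1 to 132 in Runx1-null mice and 82.7 to 136 in Runx1-WT mice. The part of these cells in the Lpl and Cd36 values was not tested. In sorted bulk samples, fewer cells of a type and less RNA per cell cannot be told apart.

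The 2 sets of markers within the luminal lineage leaned in opposite directions, with summed intensities that overlapped between the groups. Of 6 measured mature luminal markers, 5 lay below 0, with a median of -0.25 and a summed intensity of 15724 to 27889 in Runx1-null mice and 19685 to 33198 in Runx1-WT mice. Cited1, Foxa1 and Wnt4 had an unadjusted p under 0.05, at -1.17 (SE 0.40), -0.31 (SE 0.13) and -0.93 (SE 0.32), and Wnt4 did not overlap. Esr1, Pgr and Prom1 overlapped, at -0.15 (SE 0.30), 0.14 (SE 0.39) and -0.19 (SE 0.54). Luminal progenitor markers lay above 0 for 6 of 8, with a median of 0.17 and a summed intensity of 25439 to 33757 in Runx1-null mice and 24055 to 28214 in Runx1-WT mice. Their part in the values of Lpl, Cd36 and Scd1 was not tested.

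The fatty acid-binding proteins and acyl-CoA synthetases overlapped between the groups. Fabp5, a cytosolic carrier, had 7535, 8571 and 5717 in Runx1-null mice, against 7054, 4094 and 7207 in Runx1-WT mice. The groups overlapped, with Runx1-WT mouse 2 well below the others, and the difference was 0.28 (SE 0.25). Fabp3, the carrier named for heart and found in lactating gland, differed by 0.10 with a wide SE of 0.57. The synthetases Acsl3, Acsl4 and Acsl5, which attach coenzyme A to the fatty acid, differed by -0.03 (SE 0.22), -0.07 (SE 0.14) and -0.01 (SE 0.15).

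**Figure D2:**
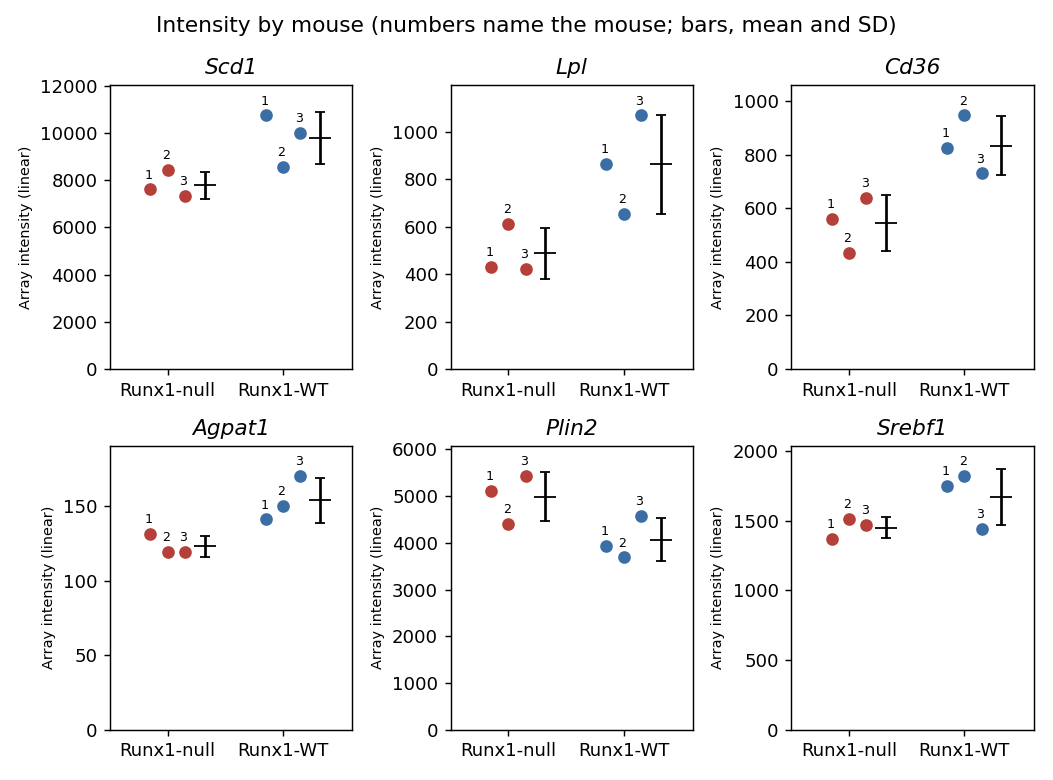
Linear array intensity (y axis, from 0) of Scd1, Lpl, Cd36, Agpat1, Plin2 and Srebf1 in each Runx1-null mouse (left) and Runx1-WT mouse (right), with the mean and SD of 3 mice beside the points. The first 4 genes have all Runx1-null points below all Runx1-WT points, and Plin2 and Srebf1 overlap.

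Triglyceride assembly had 5 of its 7 members below 0, with a median of -0.20. Agpat1, an acyltransferase of the phosphatidic acid step, had 131, 119 and 119 in Runx1-null mice, against 141, 150 and 170 in Runx1-WT mice. The groups did not overlap, but the fitted difference, -0.32, had an SE of 0.24 (unadjusted limma p = 0.223; exact permutation p = 0.1). The error in limma is drawn towards that of other genes of like brightness, and Agpat1 had a within-group SD of only 0.11. Its second probe set, at -0.24 (SE 0.29), overlapped. Agpat3, of the same family, differed by -0.12 (SE 0.17).

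Dgat2, which adds the last acyl chain to diacylglycerol, had 1328, 3425 and 4534 in Runx1-null mice, against 5021, 5396 and 2645 in Runx1-WT mice. Runx1-null mouse 1 was the lowest and Runx1-WT mouse 3 the next, so the groups overlapped at a difference of -0.60 (SE 0.49), which became -0.076 when Runx1-null mouse 1 was left out, or -0.96 when Runx1-null mouse 3 was. Gpam, the mitochondrial acyltransferase that starts the pathway, had 744, 1411 and 1367 in Runx1-null mice, against 2070, 1854 and 938 in Runx1-WT mice. The same 2 mice were its lowest, and the difference was -0.44 (SE 0.38), or -0.14 when Runx1-null mouse 1 was left out, against -0.80 when Runx1-WT mouse 3 was. Lpin2, a phosphatidate phosphatase, had 4120, 4909 and 6843 in Runx1-null mice, against 5811, 6259 and 3631 in Runx1-WT mice. This gene had those mice lowest as well, at a difference of 0.02 (SE 0.26). Lpin1, its relative, and Dgat1, the other enzyme of the last step, differed by -0.20 (SE 0.22) and 0.02 (SE 0.26).

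Among the droplet and milk fat globule genes, Plin2 was the member with the largest difference above 0 relative to its SE. Plin2, adipophilin, the coat protein of droplets in secretory cells, had 5119, 4407 and 5428 in Runx1-null mice, against 3930, 3686 and 4578 in Runx1-WT mice. Runx1-null mouse 2 lay below Runx1-WT mouse 3, the only overlap, and the difference was 0.30 (SE 0.12, interval 0.01 to 0.58, unadjusted limma p = 0.0465), a fold of 1.23 (exact permutation p = 0.2). Its promoter, printed above, carries E-box letters across the start. Plin3, a related coat protein, differed by -0.14 (SE 0.19).

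Btn1a1, butyrophilin, a membrane protein of the milk fat globule, had 725, 2762 and 6096 in Runx1-null mice, against 4635, 4086 and 2183 in Runx1-WT mice. The lowest and highest mice, 8.41-fold apart, were both Runx1-null, and the within-group SD of 1.17 on the log2 scale stood at the 96.5 percentile of all tested genes. The difference of -0.59 (SE 0.74) turned to 0.25 without Runx1-null mouse 1. Xdh, xanthine dehydrogenase, which binds butyrophilin in the globule membrane, had 1117, 2136 and 2519 in Runx1-null mice, against 1828, 1004 and 1498 in Runx1-WT mice. Its groups overlapped at 0.38 (SE 0.36), or 0.73 when Runx1-null mouse 1 was left out, against 0.14 when Runx1-WT mouse 2 was. Cidea, a droplet protein that takes part in milk lipid secretion in mice, had 243, 389 and 1215 in Runx1-null mice, against 659, 690 and 366 in Runx1-WT mice. Like Btn1a1 it was highest in Runx1-null mouse 3 and lowest in Runx1-null mouse 1, at a log2 difference of -0.18 (SE 0.59). Its linear means had the other order, 616 in Runx1-null mice and 571 in Runx1-WT mice, and without Runx1-null mouse 1 the log2 difference was 0.32. Runx1-null mouse 3, with the highest actin 3' to 5' difference, was the highest mouse for 9 members, among them Btn1a1, Xdh and Cidea. This was 26.5% of the members, against 17.4% of all tested genes. Runx1-WT mouse 3, with an actin difference of 0.50, was the highest for 10 members (29.4%), against 24.5% of all tested genes. The part of RNA integrity in these values was not tested.

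**Figure D3:**
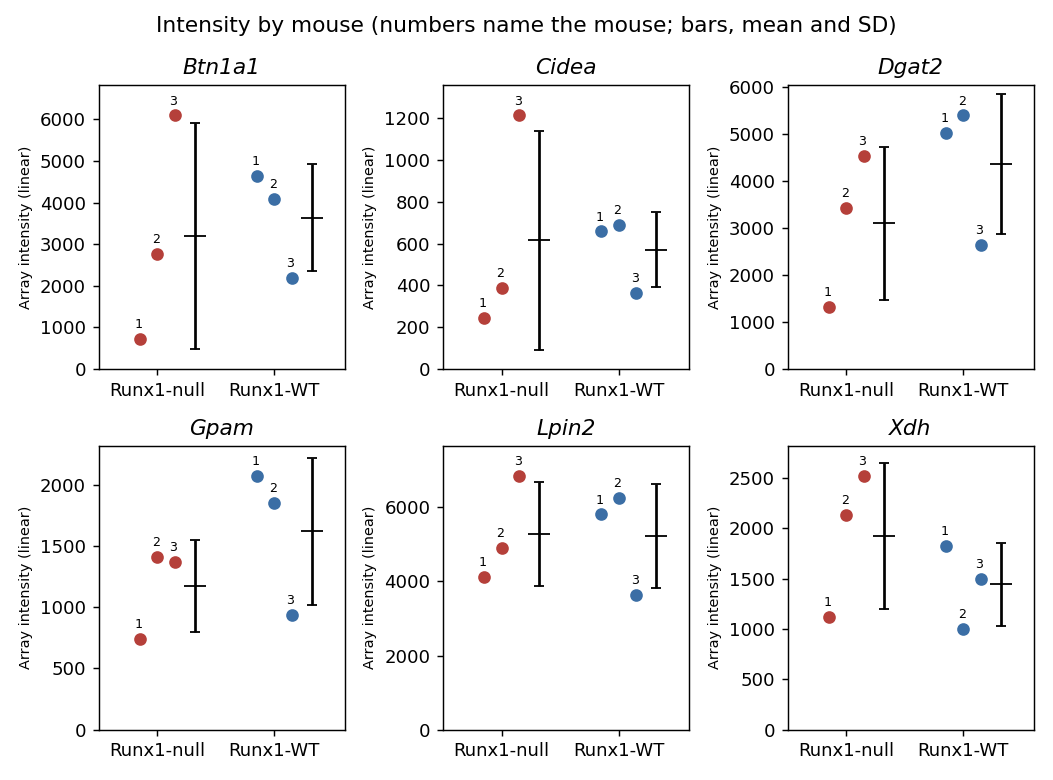
Linear array intensity (y axis, from 0) of Btn1a1, Cidea, Dgat2, Gpam, Lpin2 and Xdh in each Runx1-null mouse (left) and Runx1-WT mouse (right), with the mean and SD of 3 mice. In the first 5 genes Runx1-null mouse 1 and Runx1-WT mouse 3 are the 2 lowest, and Btn1a1 spans 725 to 6096 within the Runx1-null mice.

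Of the 2 transcription factors, Srebf1, the sterol regulatory factor of fatty acid synthesis genes, had 1368, 1513 and 1466 in Runx1-null mice, against 1748, 1819 and 1438 in Runx1-WT mice. Runx1-WT mouse 3 lay among the Runx1-null mice, and the difference was -0.20 (SE 0.16). Mlxipl, the carbohydrate-response factor ChREBP, had a mean at the 38.1 percentile of all probe sets, under the 40th that the filter required, and was not tested.

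Between mice, the members varied about as much as other genes. The median within-group SD was 0.29 on the log2 scale for the members and 0.27 for all tested genes. For 10 of the 34 members (29.4%) the 2 lowest mice were Runx1-null mouse 1 and Runx1-WT mouse 3, against 14.3% of all tested genes. These were Lpin2, Acsl5, Acsl4, Dgat2, Btn1a1, Me1, Srebf1, Gpam, Cidea and Plin3. Markers of mature luminal cells had their lowest summed intensity in the same mice. It was 15724, 25491 and 27889 in the Runx1-null mice and 33198, 31845 and 19685 in the Runx1-WT mice, with 6 of the 9 markers measured. Of the 7 milk protein genes, Csn1s1, Csn1s2a, Csn2 and Glycam1 were highest in these mice. Csn2, beta-casein, had 365, 231 and 57.3 in Runx1-null mice, against 20.6, 4.3 and 3119 in Runx1-WT mice. Csn3 was lowest in Runx1-WT mouse 3, and Wap and Lalba were below the filter. The part of the mix of luminal cells in the members' values was not tested.

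Runx1-WT mouse 2 was the lowest of the 6 for 8 members (23.5%), Fabp5, Plin2, Fads2, Fads1, Xdh, Elovl6, Dgat1 and Fabp3, a share near that of all tested genes (25.1%). Without that mouse the difference of Plin2 was 0.23.

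**Figure D4:**
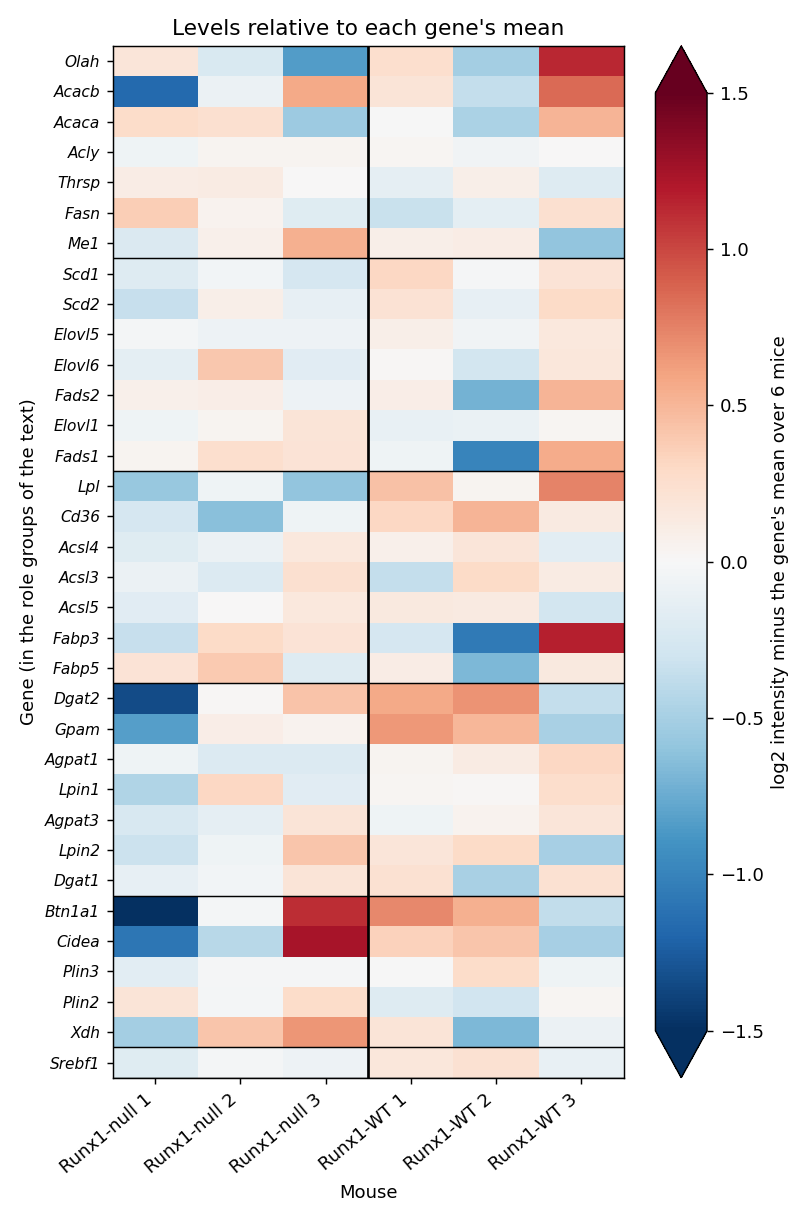
Log2 intensity of each of the 34 tested members (rows, in role groups separated by lines) minus that gene's mean over the 6 mice (columns, Runx1-null left of the vertical line and Runx1-WT right of it). Red is above and blue below the mean, and Dgat2, Gpam, Btn1a1 and Cidea are blue in both Runx1-null mouse 1 and Runx1-WT mouse 3.

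Where a gene had several probe sets above the filter, they were read separately. Both sets of Scd1 and both of Lpl were apart with the Runx1-null mice below, as were 2 of the 3 sets of Cd36. Both sets of Dgat2 lay below 0 with overlap, at -0.60 (SE 0.48) and -0.83 (SE 0.64). Lpin2 had 1 set above 0 and 3 below, and the sets of Acly, Fads2, Elovl6, Acsl3, Acsl4, Agpat3 and Dgat1 also fell on both sides.

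**Figure D5:**
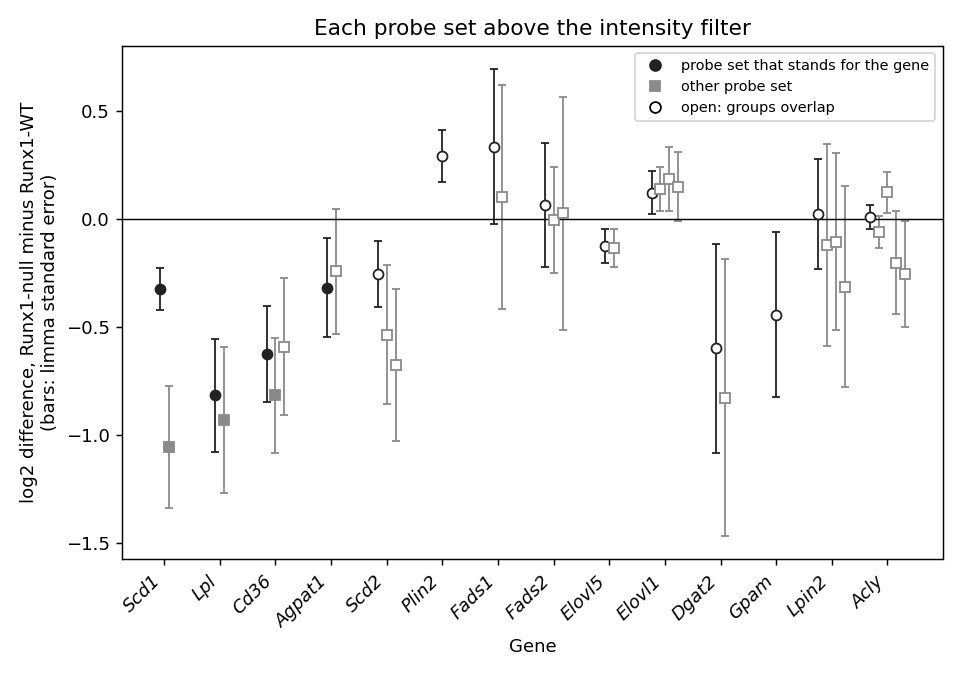
Log2 difference, Runx1-null minus Runx1-WT (y axis), of each probe set above the intensity filter for 14 members (x axis), with the limma standard error as bars. Filled symbols mark probe sets whose groups did not overlap, which are found in Scd1, Lpl, Cd36 and Agpat1, all below 0.

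Other genes of the pathway gave no call either. Of 24 tested genes of lipid synthesis and storage outside the members, 15 lay above 0 and 9 below, with a median of 0.04. Acss2, which makes acetyl-CoA from acetate, had 477, 527 and 684 in Runx1-null mice, against 850, 947 and 608 in Runx1-WT mice. Only Runx1-WT mouse 3 fell among the Runx1-null mice, and the difference was -0.50 (SE 0.25). Gpat4, an acyltransferase of the endoplasmic reticulum, and Mid1ip1, a partner of acetyl-CoA carboxylase, differed by 0.26 (SE 0.31) and -0.05 (SE 0.15).

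Among 19 tested lipid regulators, 11 lay above 0 and 8 below. Of the 19, 2 did not overlap, 1 in each direction, against 5.55% of all tested genes in either direction. Scap, the escort of sterol regulatory element-binding proteins, had 2747, 2837 and 2534 in Runx1-null mice, against 3472, 3398 and 2838 in Runx1-WT mice. Its groups only just stood apart, at -0.25 (SE 0.12). Stat5b, a mediator of prolactin and growth hormone signals, had 2193, 2407 and 2189 in Runx1-null mice, against 2069, 1860 and 1963 in Runx1-WT mice. All Runx1-null values stood above all Runx1-WT values, at 0.20 (SE 0.13). Stat5a differed by 0.13 (SE 0.12), Insig1, the sterol sensor that retains Scap, by 0.14 (SE 0.18), and Pparg by -0.18 (SE 0.32).

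Genes of lipolysis and beta oxidation, which break fat down, lay below 0 for 13 of 19, with a median of -0.10. Cpt1a, the carnitine acyltransferase that admits fatty acids to mitochondria, had 2588, 2646 and 2762 in Runx1-null mice, against 3116, 3059 and 2799 in Runx1-WT mice. Its groups did not overlap, and the difference was -0.17 (SE 0.11). Pnpla2, adipose triglyceride lipase, differed by 0.17 (SE 0.29).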

How the data were processed

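RNA from YFP+ luminal MECs of 6 mice was amplified, biotin-labelled and hybridised to Affymetrix mouse arrays, 1 array per mouse. The deposited values are linear intensities of 45101 probe sets, which the authors had normalised and summarised with dChip, so the background correction is theirs. Probe sets were named by the platform annotation: 34958 mapped to 1 gene, 932 to several and 9211 were unnamed, and the last 2 kinds were left out. The brightest probe set by mean over the 6 arrays stood for each gene. Values under 19.3, the 20th percentile, were set to it before log2. Genes with a mean of at least 73.5, the 40th percentile, were tested with limma 3.58.1 in R 4.3.3 (moderated errors with an intensity trend), with Benjamini-Hochberg adjustment over all 12152 tested genes. Single values were set against an exact two-sided permutation test over mice, whose smallest p is 0.1. The number of arrays limits the precision. Ranges of animal numbers in the labels (4 mice below 700, 2 above) served as a block in an alternative.

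The members and all gene lists were chosen with earlier results of these data known. Values by mouse are given for members whose groups did not overlap, those with an unadjusted p under 0.05, the brightest of each role group, and those with a difference over 0.5 on the log2 scale. Values by mouse of Scd2, Fads1, Fasn, Elovl5, Gpam, Xdh, Cidea, Acss2, Scap, Stat5b, Cpt1a and Csn2 were added after their values were seen. So was the naming of Kdr, Tek, Cited1, Foxa1, Wnt4, Esr1, Pgr, Prom1, Pecam1 and the single adipocyte markers. Tests were checked on simulated data. Promoter sequences came from RefSeq, and those of Dgat1, Scd1, Cidea, Fabp5, Dgat2, Scd2, Xdh, Lpl, Btn1a1 and Fads1 were not used here. Alternatives changed the filter, the floor, the scaling, the trend, the probe set, the test and the mice.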

Additional observations from a re-analysis of the deposited data

How the results depend on the processing

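No gene and no member passed an adjusted p under 0.05 in limma under any filter, floor, scaling, trend, block or mouse left out, nor at 0.1 or over all probe sets. Of all genes, 234 had an unadjusted p under 0.05, and 78 to 818 did with 1 mouse left out. Of the members, 4 did, and 2 (Cd36 and Lpl) did without the trend, where 2.32% of all genes did. The methods' t-test at their threshold gave 335 genes and 4 members (Scd1, Cd36, Lpl and Agpat1), and 0 of either after Benjamini-Hochberg adjustment. The members' median of -0.05 ranged from -0.16 (without Runx1-null mouse 3) to 0.017 (without Runx1-null mouse 1), and median scaling put it at 0.04, the median of all genes then being 0.07. No fit by litter was made because which mice shared a litter is not given. A block on animal number range gave 305 genes and 4 members, again Scd1, Cd36, Lpl and Plin2, with an unadjusted p under 0.05.

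With 1 mouse left out, Scd1 stayed between -0.42 and -0.25, Lpl between -1.002 and -0.65, Cd36 between -0.75 and -0.47, Agpat1 between -0.38 and -0.24 and Plin2 between 0.23 and 0.38. With median scaling the unadjusted limma p was 0.23 for Scd1, 0.129 for Cd36, 0.0384 for Lpl and 0.151 for Plin2. In the 4 mice with lower animal numbers alone, where 15.4% of all genes had an unadjusted p under 0.05, Btn1a1 stood at -1.62, Dgat2 at -1.29, Cidea at -1.13 and Gpam at -0.93, while the 1 Runx1-null and 1 Runx1-WT mouse with higher numbers gave 1.48, 0.78, 1.73 and 0.54 in that order. For Cd36 the 2 ranges gave -0.84 and -0.19, and for Lpl -0.55 and -1.34.

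Signs turned for 17 of the 34 members in at least 1 setting with a test, none of them a call. In the lower numbers alone, Acly was at -0.0027, Acaca at 0.50, Me1 at -0.17, Olah at 0.10 and Lpin2 at -0.42. Quantile normalization put Acaca at 0.051, Acsl3 at 0.0096 and Acsl5 at 0.015, and median scaling put Acaca at 0.075, Acsl3 at 0.059, Acsl4 at 0.022 and Acsl5 at 0.086. Other probe sets gave -0.060, -0.20 and -0.25 for Acly, -0.0017 for Fads2, -0.011 and -0.82 for Elovl6, 0.13 for Acsl3, 0.12 for Acsl4, 0.13 and 0.067 for Agpat3, -0.12, -0.10 and -0.31 for Lpin2, and -0.36 for Dgat1. With 1 mouse left out, the lowest and highest values were -0.012 and 0.046 for Acly, -0.26 and 0.25 for Acaca, -0.85 and 0.012 for Acacb, -0.076 and 0.70 for Fads1, -0.27 and 0.34 for Fads2, -0.13 and 0.15 for Elovl6, -0.41 and 0.71 for Fabp3, -0.22 and 0.10 for Acsl3, -0.17 and 0.0036 for Acsl4, -0.14 and 0.079 for Acsl5, -0.22 and 0.19 for Lpin2, -0.21 and 0.14 for Dgat1, -1.29 and 0.25 for Btn1a1, and -0.84 and 0.32 for Cidea. The cause was not tested.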
